A study of Homo sapiens with 8 samples.

Results

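Matrix, mesenchymal and TGF-beta responsive genes, together with genes that the fusion factor EWSR1-FLI1 is known to repress, were followed in 2 Ewing sarcoma cell lines. The list was written by name and holds 48 genes, of which 25 were named on the array, out of 14884 named genes in all. It was chosen with earlier results of these data known, so its shares are not independent of the data. Where a gene had several probe sets, the brightest one on average was read, with no use of a change between groups. The other 23 listed genes were not analysed here: the collagens COL1A1, COL1A2, COL3A1, COL4A1, COL4A2, COL5A1, COL5A2, COL6A1, COL6A2 and COL6A3, and TGFBR2, PHLDA1, SPRY1, CCN1, SPARC, CDH2, CDH11, POSTN, ACTA2, TGFBI, MMP2, ITGA5 and ITGB1. The results below therefore describe the 25 measured genes and say nothing of the collagens.

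Ewing sarcoma arises in bone and soft tissue, and its driver joins EWSR1 to an ETS factor, usually FLI1. A673 and SK-ES1 are established lines of this tumour, and each was studied with a hairpin RNA that targets RING1B (shRING1B) and with one that targets GFP as the control (shGFP). RING1B is a ubiquitin ligase of Polycomb repressive complex 1, and the series title ties it to EWSR1-FLI1 and chromatin. Each of the 4 groups (A673 shGFP, A673 shRING1B, SK-ES1 shGFP and SK-ES1 shRING1B) had 2 arrays, so every group carried a hairpin and no cells without one were included. The hairpin's sequence, its vector and the time of harvest are not in the labels, and they do not say whether a group's arrays stem from separate cultures. The p-values therefore reflect the spread between these arrays alone, and that spread may be technical. The level of the RING1B gene, RNF2, was not analysed here, so the depth of the knockdown in either line is unknown.

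EWSR1-FLI1 switches on genes next to GGAA repeats and holds down others, among them LOX, FOXO1 and many genes of mesenchymal cells. Lowering the fusion in Ewing cells is known to bring back mesenchymal features such as matrix, adhesion and contractile proteins. Many of the same genes answer to TGF-beta, whose receptors activate SMAD proteins, and to the coactivator YAP, which works through TEAD factors.

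All values are log2 expression values, so a difference of 1 is a 2-fold difference on the array's scale. Array medians over 48144 probe sets lay between 4.01 and 4.1, and no 2 arrays were identical. The 8 measured Ewing sarcoma markers fixed for a check of the labels, among them CD99 and NKX2-2, had group means above the median of all values, 4.06, in all 4 groups, with CD99 at 12.16 ± 0.0703 in A673 shGFP and 11.36 ± 0.155 in SK-ES1 shGFP (SD, n = 2). Of the 2 measured immune markers, 0 lay above it, and of 3 endothelial markers at most 1 did. Of the neural markers 4 of 4, of the skeletal muscle markers 3 of 3 and of the epithelial markers 4 of 5 lay above it in each group. Of the 3 measured fibroblast markers, of which LUM and DCN are also genes of the list, 1 lay above it in A673 and 3 in SK-ES1. The third, THY1, went the other way from LUM and DCN between the lines. It had a mean of 6.72 in A673 shGFP and 5.50 in SK-ES1 shGFP, a difference of -1.21 (limma adjusted p = 8.83e-05). FLI1, which is read here without telling the fusion from the normal gene, stood at 5.38 and 5.43 in A673 shGFP and at 5.98 and 6.08 in A673 shRING1B. That log2 change of 0.62 missed the threshold (limma adjusted p = 0.0574). In SK-ES1 the values were 5.21 and 5.14 under shGFP and 5.43 and 4.94 under shRING1B. Its part in the results below was not tested.

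Promoters of 4 genes are shown because the results turn on them, a choice made after the values were seen. CCN2 had the largest change under the RING1B hairpin in A673, TIMP3 was the gene called there, and FN1 and TNC were among the 3 of the 25 genes with the largest gap between the lines. Each run holds the 250 bases before the start site, 5′ to 3′ on the gene's strand, from RefSeq's GRCh38.p14. CCN2 lies at chr6:131951373-131951622, minus strand; TNC at chr9:115118158-115118407, minus strand; FN1 at chr2:215436069-215436318, minus strand; TIMP3 at chr22:32801455-32801704, plus strand. Capitals mark matches to the motifs searched.
CCN2: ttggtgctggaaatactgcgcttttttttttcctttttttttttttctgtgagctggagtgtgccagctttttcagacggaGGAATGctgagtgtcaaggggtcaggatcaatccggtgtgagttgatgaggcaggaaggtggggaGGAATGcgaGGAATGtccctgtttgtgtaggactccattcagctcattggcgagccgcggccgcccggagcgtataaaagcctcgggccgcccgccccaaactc
TNC: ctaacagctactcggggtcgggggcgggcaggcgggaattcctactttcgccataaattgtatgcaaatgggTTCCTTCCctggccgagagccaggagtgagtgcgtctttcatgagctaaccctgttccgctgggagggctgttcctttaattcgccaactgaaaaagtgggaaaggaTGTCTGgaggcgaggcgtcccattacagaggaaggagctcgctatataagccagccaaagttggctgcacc
FN1: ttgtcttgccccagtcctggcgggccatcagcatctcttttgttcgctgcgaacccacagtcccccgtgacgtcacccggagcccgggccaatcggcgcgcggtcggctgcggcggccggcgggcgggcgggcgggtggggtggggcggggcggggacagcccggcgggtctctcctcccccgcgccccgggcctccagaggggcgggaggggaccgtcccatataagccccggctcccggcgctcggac
TIMP3: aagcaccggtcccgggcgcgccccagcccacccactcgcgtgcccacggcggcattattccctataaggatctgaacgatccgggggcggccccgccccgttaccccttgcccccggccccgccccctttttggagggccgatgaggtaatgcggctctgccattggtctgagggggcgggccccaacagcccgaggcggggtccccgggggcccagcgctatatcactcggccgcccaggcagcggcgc

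Motifs were searched on both strands in 250 bases of promoter, which the RefSeq table gave for 18 of the 25 genes. The CCN2 promoter holds the TEAD motif CATTCC 3 times, at -169, -104 and -95 from the start site, each read as GGAATG on the gene's strand. THBS1 and FBN1 also hold it, so 3 of 18 genes (16.7%) do, against 11.9% of 35116 promoters. The TNC promoter holds the tandem ETS core GGAAGGAA, read as TTCCTTCC on the gene's strand, at -178. The promoters of ZEB1, FBN2 and TIMP1 hold it too, which makes 4 of 18 (22.2%) against 3.06% of all promoters. The SMAD motif CAGACA was found in TNC, at -71, and in LOX, 2 of 18 (11.1%) against 13.6%. The longer SMAD motif AGACAGAC, which can overlap CAGACA, was found in 0 of 18 against 1.02%, and the AP-1 motif TGACTCA or TGAGTCA in 0 of 18 against 4.2%. The E-box CACCTG, bound by SNAI, TWIST and ZEB factors, was in ZEB1 alone, 1 of 18 (5.56%) against 17.5%. These are matches of letters in a short window, and FN1 and TIMP3 have none of them there. The 18 genes count 1 promoter each, while the 35116 promoters are all entries given and are not limited to the 14884 genes measured. The shares are therefore not on like sets.

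In A673, TIMP3 was the 1 gene of the 25 that passed the test under the RING1B hairpin. TIMP3, an inhibitor of metalloproteinases that is bound to the matrix, stood at 7.80 and 7.76 on the shGFP arrays and at 7.30 and 7.36 on the shRING1B arrays. Both shRING1B arrays lay below both shGFP arrays. It fell by 0.45 on the log2 scale with a standard error of 0.107, a 1.37-fold lower level (limma adjusted p = 0.0497). The call sits at the threshold: its adjusted p rose to between 0.0724 and 0.242 with any 1 of the 8 arrays left out, and it was also lost with quantile normalization repeated, with the arrays centred, with the mean of the probe sets and when only the A673 arrays were fitted. The second, dimmer TIMP3 probe set had a log2 change of -0.36, from 4.76 and 4.49 under shGFP to 4.06 and 4.48 under shRING1B. Its change rests on shRING1B replicate 1, since the replicate 2 arrays were nearly level. Of the 25 genes 4.0% were called, against 3.74% of all genes tested (0.705% higher and 3.04% lower), so the count is no more than the background.

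The signs of the A673 changes were uneven, with 17 genes above 0 and 8 below. Their median log2 change was 0.14, against 0.0118 over all genes, and it was 0.0664 without A673 shRING1B replicate 2. On 12 genes (48%) both shRING1B arrays lay above both shGFP arrays, against 26.0% of all genes, and on 3 (12%) both lay below, against 23.9%. The 3 were TIMP3, TWIST2 and ZEB1. A median log2 change above 0 in A673 was not particular to the 25 genes. It was 0.256 for 9 actin and contractile genes and 0.162 for 11 YAP and TEAD genes, lists described below. The 8 Ewing sarcoma markers had 0.228, 13 other matrix genes -0.179, and all 68 measured pathway genes outside the list 0.0723. At an unadjusted p under 0.05, 8 of 25 (32%) passed, 5 higher and 3 lower, against 18.9% of all genes. That count was 5 to 10 with 1 array left out, the lowest without A673 shGFP replicate 2, where 11.3% of all genes passed.

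**Figure D1:**
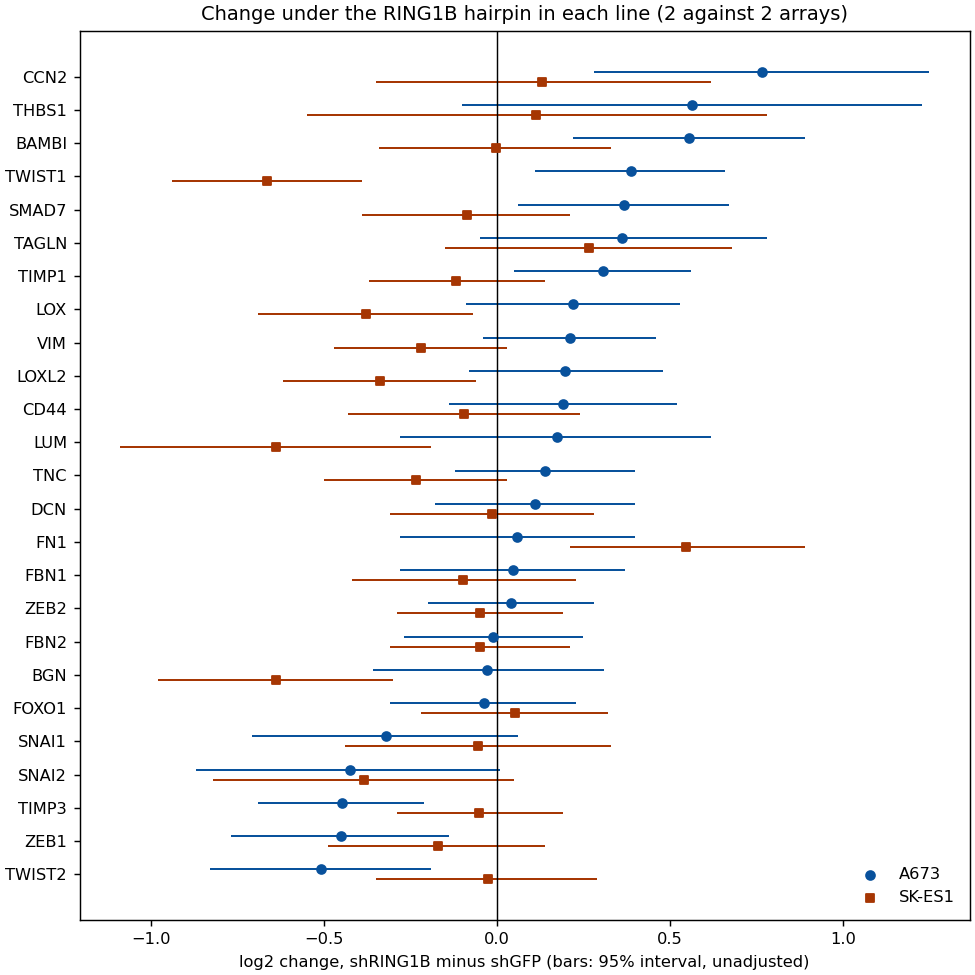
Log2 change (shRING1B minus shGFP, x axis) of each of the 25 genes in A673 (circles) and SK-ES1 (squares), 2 against 2 arrays, with unadjusted 95% intervals from the limma fit of all 8 arrays. In A673 17 points lie above 0 and in SK-ES1 5 do; TWIST1 has its intervals on opposite sides of 0 in the lines.

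Of the 25 genes, CCN2 had the largest positive A673 value, followed by THBS1, BAMBI, TWIST1 and SMAD7, and none of them was called. CCN2, a secreted matricellular protein that both pathways induce, stood at 6.70 and 7.28 under shGFP and at 7.47 and 8.06 under shRING1B. The groups did not overlap, but the arrays of each lay 0.5 or more apart, and the log2 change of 0.77 missed the threshold (adjusted p = 0.0865). It was 0.48 without A673 shGFP replicate 1 and 0.47 without A673 shRING1B replicate 2. A second, dim CCN2 probe set had 0.08. BAMBI, a decoy receptor that dampens TGF-beta signalling, was at 7.55 and 7.58 under shGFP and at 7.89 and 8.36 under shRING1B. Both shRING1B arrays were higher, and the log2 change was 0.56 (adjusted p = 0.0777). BAMBI was called without A673 shRING1B replicate 1, with a log2 change of 0.79 (adjusted p = 0.0279), but stood at 0.32 (adjusted p = 0.275) without replicate 2 and was not called in 12 of 15 alternatives. SMAD7, the inhibitory SMAD that TGF-beta induces, read 5.32 and 5.63 under shGFP and 5.79 and 5.90 under shRING1B. That is a log2 change of 0.37 (adjusted p = 0.178), with no overlap of the groups, and of 0.21 without A673 shGFP replicate 1.

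Of the matrix genes in A673, LOX, which crosslinks collagen and elastin, read 6.36 and 6.53 under shGFP and 6.48 and 6.86 under shRING1B, and these overlap. LOXL2, its relative, read 6.86 and 6.95 and then 7.04 and 7.16, with a log2 change of 0.20 (adjusted p = 0.445). The glycoprotein THBS1 was at 5.09 and 5.23 under shGFP and at 5.20 and 6.25 under shRING1B. Its log2 change of 0.56 (adjusted p = 0.35) rests on 1 array, since shRING1B replicate 1 lies within the shGFP range. TAGLN, an actin-binding protein of contractile cells, read 5.53 and 5.48 under shGFP and 5.55 and 6.18 under shRING1B, a log2 change of 0.36 (adjusted p = 0.334). Its groups are apart, but by little on replicate 1, and the change was 0.0511 without shRING1B replicate 2. TIMP1, a secreted metalloproteinase inhibitor, read 9.40 and 9.37 and then 9.59 and 9.79, a log2 change of 0.31 (adjusted p = 0.186). TIMP1 was called with trended and robust variance (adjusted p = 0.0315) and not in the other 14 alternatives. On A673 shRING1B replicate 2, 18 of the 25 genes stood higher than on replicate 1, with a median gap of 0.156 against 0.0389 over all genes. The same count, 18, held between the SK-ES1 shGFP arrays, with a smaller median gap of 0.0738. The part of these gaps in the results was not tested. The changes of FN1, FBN1, FBN2, BGN and FOXO1 lay between -0.04 and 0.06, each with overlapping groups. FOXO1, a forkhead factor known as a repressed target of the fusion, had an interval of -0.31 to 0.23.

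The 6 transcription factors of epithelial-mesenchymal transition did not share a sign in A673. TWIST1 was at 5.40 and 5.31 under shGFP and at 5.84 and 5.65 under shRING1B. TWIST2, its paralog, was at 4.08 and 4.13 and then at 3.52 and 3.68. The first pair of groups is higher under shRING1B and the second lower, with log2 changes of 0.39 (adjusted p = 0.121) and -0.51 (adjusted p = 0.0861). The zinc-finger repressor ZEB1 was lower on both shRING1B arrays (4.24 and 4.49 against 3.99 and 3.84), with a log2 change of -0.45 (adjusted p = 0.116). For TWIST2 and ZEB1 the A673 shRING1B arrays lay below the median of all values, 4.06, where signal above background was not shown. SNAI1 and SNAI2, repressors of E-cadherin, had log2 changes of -0.32 (adjusted p = 0.358) and -0.43 (adjusted p = 0.276) with overlapping groups, and SNAI2 ranged from -0.716 to -0.136 with 1 A673 array left out, and ZEB2 had 0.04. None of the 6 was called.

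In SK-ES1, none of the 25 genes passed the test, and most values lay below 0. limma called 0 of 25, against 0.0672% of all genes, while 6 passed an unadjusted p under 0.05, 1 higher and 5 lower (24%, against 7.36% of all genes). Leaving out an SK-ES1 array gave 2 (shGFP replicate 2), 3 (shRING1B replicate 1), 4 (shGFP replicate 1) or 5 (shRING1B replicate 2), and the count reached 7 with 1 A673 shRING1B array left out. A fit with trended and robust variance called 1, BGN (adjusted p = 0.0359). Of the 25 genes, 20 lay below 0 and 5 above, with a median log2 change of -0.0876 against -0.0039 over all genes. On 10 genes (40%) both shRING1B arrays lay below both shGFP arrays, against 19.3% of all genes, and on 2 (8%), FN1 and TAGLN, both lay above, against 17.8%.

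The largest SK-ES1 values were those of TWIST1, BGN, LUM, FN1, SNAI2 and LOX. TWIST1 was at 5.06 and 5.15 under shGFP and at 4.53 and 4.35 under shRING1B, a log2 change of -0.67 (adjusted p = 0.152). Biglycan, BGN, a proteoglycan of bone matrix, stood at 7.02 and 6.75 under shGFP and at 6.41 and 6.08 under shRING1B, a log2 change of -0.64 (adjusted p = 0.321). Lumican, LUM, which orders collagen fibrils, was at 6.23 and 6.38 and then at 5.34 and 5.99. In all these cases both shRING1B arrays were the lower ones, and the LUM change of -0.64 had an adjusted p of 0.53. It was -0.31 without SK-ES1 shRING1B replicate 1 and -0.96 without replicate 2. Decorin, DCN, the third proteoglycan, had a log2 change of -0.01.

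LOX read 4.74 and 4.78 under shGFP and 4.39 and 4.37 under shRING1B in SK-ES1, with a spread of 0.0294 and 0.0134 (SD, n = 2). The groups are apart, but the log2 change of -0.38 was not called (adjusted p = 0.611). LOXL2 read 5.83 and 5.88 and then 5.65 and 5.38, a log2 change of -0.34 (adjusted p = 0.611), and of -0.205 without shRING1B replicate 2. FN1, fibronectin, went the other way, from 5.30 and 4.98 to 5.86 and 5.51, with a log2 change of 0.55 (adjusted p = 0.463). TNC, an adhesion-modulating glycoprotein, had -0.24 and the filament protein VIM -0.22, both with lower shRING1B arrays. SNAI2 had -0.38 (adjusted p = 0.737) and TAGLN 0.27 (adjusted p = 0.836). The 6 transition factors all lay below 0 in SK-ES1, between -0.67 for TWIST1 and -0.03 for TWIST2. CCN2, BAMBI and SMAD7 had 0.13, -0.00193 and -0.09, and their groups overlapped.

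**Figure D2:**
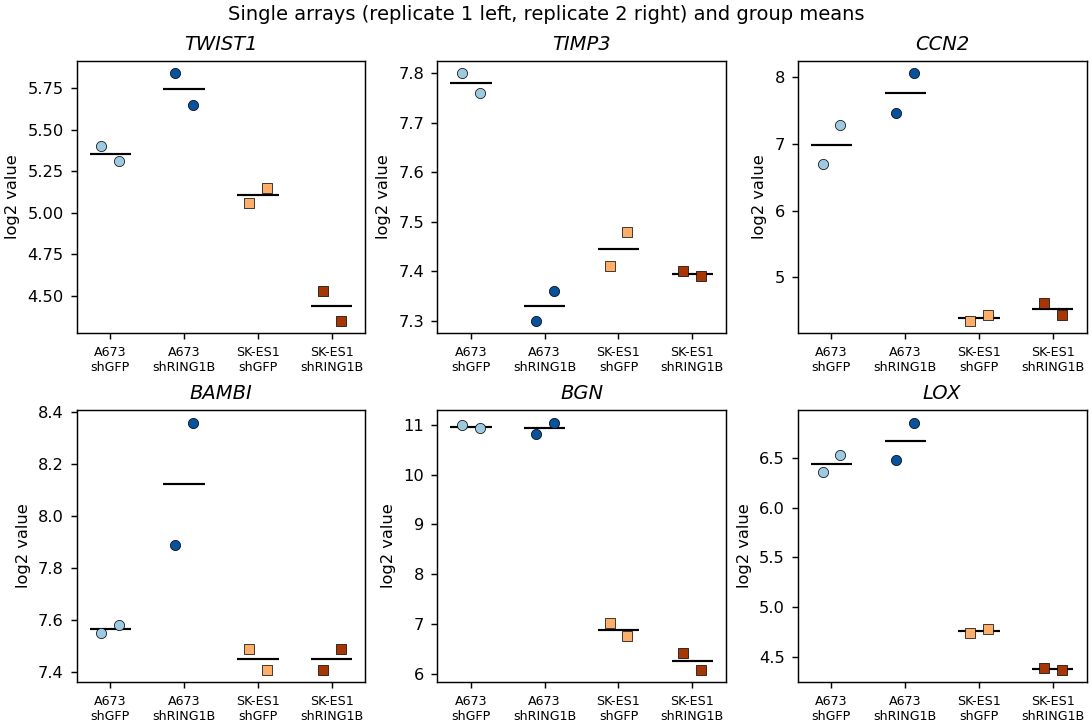
Log2 values of 6 genes on single arrays (points; replicate 1 left, replicate 2 right) with the mean of the 2 arrays of each group (lines); each panel has its own y axis, which does not start at 0. TWIST1 is higher under shRING1B in A673 and lower in SK-ES1, TIMP3 is lower in A673 and nearly level in SK-ES1, and BGN and LOX stand far higher in A673 than in SK-ES1.

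The difference between the lines' responses was tested directly, and TWIST1 was the 1 gene called. TWIST1, a basic helix-loop-helix factor of mesoderm and neural crest, had a difference of -1.05 (SK-ES1 change minus A673 change; standard error 0.174, limma adjusted p = 0.0341). All 4 shRING1B arrays moved away from their line's shGFP arrays, upwards in A673 and downwards in SK-ES1. The call held without A673 shRING1B replicate 2 and was lost without any other array, where the difference lay between -0.96 and -1.14 and the adjusted p between 0.0667 and 0.152. Of the 25 genes 4.0% were called, against 0.786% of all genes (0.161% with a difference below 0).

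More of the 25 genes leaned the same way as TWIST1 without passing. Of the 25, 18 had a difference below 0 and 7 above, with a median of -0.286 against -0.0124 over all genes. At an unadjusted p under 0.05, 13 (52%) passed, 10 lower and 3 higher, against 13.7% of all genes, and that count was between 5 and 11 with 1 array left out, against 9.88% to 13.8% of all genes. The lowest count, 5, came without A673 shGFP replicate 1, and it was 7 without replicate 2 of A673 shGFP, replicate 2 of A673 shRING1B or replicate 1 of SK-ES1 shGFP, and 8 without SK-ES1 shRING1B replicate 1, SK-ES1 shRING1B replicate 2 or SK-ES1 shGFP replicate 2. Without A673 shRING1B replicate 2 the median was -0.137. Without SK-ES1 shGFP replicate 2 it was -0.186. The 2 crosslinking enzymes had nearly the same values, LOX -0.6 and LOXL2 -0.54 (both adjusted p = 0.232). LUM had -0.81 (adjusted p = 0.251), BGN -0.61 (adjusted p = 0.248), BAMBI -0.56 (adjusted p = 0.288), SMAD7 -0.45 (adjusted p = 0.337), VIM -0.43 (adjusted p = 0.267), TIMP1 -0.42 (adjusted p = 0.289) and TNC -0.37 (adjusted p = 0.364). On the other side stood TIMP3 at 0.40 (adjusted p = 0.285), TWIST2 at 0.48 (adjusted p = 0.338) and FN1 at 0.49 (adjusted p = 0.358). The lean below 0 was not particular to the 25 genes. Median differences were -0.213 for 9 actin and contractile genes, -0.207 for 11 YAP and TEAD genes and -0.193 for the 8 Ewing sarcoma markers. They were above 0 for 13 other matrix genes (0.129) and 4 other basement membrane genes (0.0997). All 68 measured pathway genes outside the list, described below, had -0.154.

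Averaged over both lines, none of the 25 genes was called, against 1.36% of all genes (0.114% higher and 1.24% lower). limma gave 9 at an unadjusted p under 0.05, 4 higher and 5 lower (36%, against 14.5%). That count was 4 to 8 with 1 array left out, the lowest without A673 shGFP replicate 2. Trended and robust variance called BGN (adjusted p = 0.0393). CCN2 had the largest positive mean change, 0.45 (adjusted p = 0.217), and SNAI2 the largest negative one, -0.41 (adjusted p = 0.218). SNAI2 was at 8.05 and 8.5 in A673 shGFP and at 7.56 and 8.14 in A673 shRING1B, which overlap. In SK-ES1 it was at 7.85 and 7.86 under shGFP and at 7.52 and 7.42 under shRING1B, which do not. ZEB1 had a mean change of -0.31 (adjusted p = 0.187) and TIMP3 of -0.25 (adjusted p = 0.163). FN1 and TAGLN had 0.30 (adjusted p = 0.231) and 0.31 (adjusted p = 0.312), TWIST2 -0.27 (adjusted p = 0.264), BAMBI 0.28 (adjusted p = 0.272) and LUM -0.23 (adjusted p = 0.498).

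The lines themselves differed far more than the hairpins did. Under shGFP, 17 of the 25 genes (68%) were called, against 30.7% of all genes, with 13 lower in SK-ES1 than in A673 and 4 higher (17.0% and 13.7% of all genes). At an unadjusted p under 0.05, 20 passed (80%, against 39.7%). The median difference was -0.421 (SK-ES1 minus A673), against 0.0092 over all genes, and the median size was 1.01 against 0.237. On 18 genes both SK-ES1 arrays lay below both A673 arrays and on 6 above, 72% and 24% against 32.6% and 32.3% of all genes. With 1 array left out, the median difference lay between -0.614 and -0.372. With 2 lines, these are differences between A673 and SK-ES1 and not between kinds of Ewing sarcoma. The 25 genes were chosen with earlier results of these data known, so their shares here are not independent evidence.

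**Figure D3:**
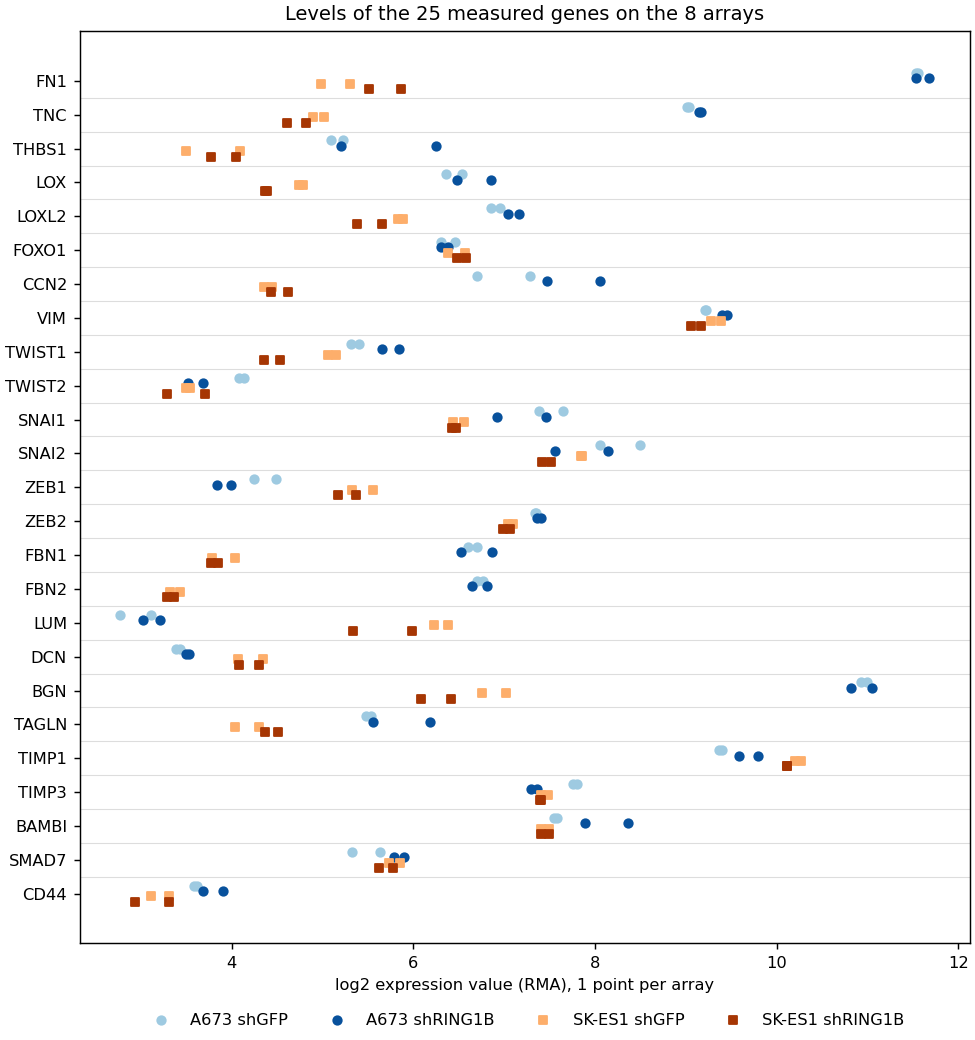
Log2 value of each of the 25 genes on each of the 8 arrays (1 point per array; circles A673, squares SK-ES1; light shGFP, dark shRING1B). For FN1, TNC, BGN, FBN1, FBN2 and CCN2 the A673 points stand well to the right of the SK-ES1 points, for LUM the order is turned, and levels should be compared across arrays within a row, not between rows.

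The matrix glycoproteins and fibrillins were low in SK-ES1 without exception among the 5 measured. FN1 stood at 11.56 and 11.54 in A673 shGFP and at 5.30 and 4.98 in SK-ES1 shGFP. That difference of -6.41 with a standard error of 0.152, or 85.3-fold, was the second most negative of all 14884 genes (adjusted p = 4.41e-09). TNC read 9.01 and 9.03 against 4.89 and 5.02, 16.8-fold lower (adjusted p = 1.41e-08). The fibrillins build the microfibrils of elastic fibres. FBN2 read 6.77 and 6.70 against 3.32 and 3.43, and FBN1 6.70 and 6.60 against 3.78 and 4.03. Both were below the median of all values, 4.06, in SK-ES1 and above it in A673, with differences of -3.36 (adjusted p = 3.32e-08) and -2.74 (adjusted p = 4.04e-07). THBS1 had a difference of -1.37 (adjusted p = 0.00577), a call lost without SK-ES1 shGFP replicate 1 (difference -1.07). That array, at 3.5, lay below the median of all values, and SK-ES1 shGFP replicate 2 stood at 4.09.

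The 3 small leucine-rich proteoglycans split. BGN read 11.00 and 10.93 in A673 and 7.02 and 6.75 in SK-ES1, 16.9-fold lower (adjusted p = 4.34e-08). LUM read 3.11 and 2.77 in A673 and 6.23 and 6.38 in SK-ES1, a difference of 3.37 (adjusted p = 9.37e-07). DCN read 3.43 and 3.38 against 4.34 and 4.07, a difference of 0.80 (adjusted p = 0.00107). Both stood below the median of all values in A673, where signal above background was not shown, so no fold is given. LUM and DCN are next to each other among the protein-coding genes of chromosome 12. So the 2 neighbours were both higher in SK-ES1, while BGN was higher in A673.

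Among the other roles, CCN2 was 6.06-fold lower in SK-ES1, at 4.35 and 4.44 against 6.70 and 7.28 (adjusted p = 1.11e-05). Its second probe set had a difference of -1.03. LOX was 3.22-fold lower (adjusted p = 1.07e-05), LOXL2 2.07-fold (adjusted p = 0.000139) and TAGLN 2.52-fold (adjusted p = 0.000376). TIMP1 was higher in SK-ES1, at 10.27 and 10.20 against 9.40 and 9.37 (1.8-fold, adjusted p = 0.000305). TIMP3 was 1.26-fold lower (adjusted p = 0.0386) and lost that call with any 1 of the 4 shGFP arrays left out (adjusted p = 0.0877 to 0.169), in the fit of these 4 arrays alone and with the mean of its probe sets (0.204).

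The transition factors differed in both directions. ZEB1 was higher in SK-ES1, at 5.32 and 5.55 against 4.24 and 4.49 (2.1-fold, adjusted p = 0.000255). SNAI1 was lower, at 6.44 and 6.56 against 7.38 and 7.65 (2.02-fold, adjusted p = 0.00134), and TWIST2 was lower, with a difference of -0.59 (adjusted p = 0.0105), the last call lost without A673 shGFP replicate 2 (adjusted p = 0.0628) or SK-ES1 shGFP replicate 1 (adjusted p = 0.0592). The SK-ES1 shGFP arrays of TWIST2, at 3.49 and 3.54, lay below the median of all values, 4.06, where signal above background was not shown. TWIST1 (-0.25), SNAI2 (-0.42) and ZEB2 (-0.27) were not called.

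The other genes of the list were not called, which does not show that their levels were alike. VIM, the intermediate filament protein of mesenchymal cells, stood at 9.22 and 9.21 in A673 and at 9.28 and 9.39 in SK-ES1, a difference of 0.12 with an interval of -0.13 to 0.37. Its dimmer probe sets had 0.32 and 0.37. FOXO1 had 0.10 and BAMBI -0.11. SMAD7 had 0.31, with an interval of 0.01 to 0.61, and CD44, a hyaluronan receptor, -0.39, with an interval of -0.72 to -0.05. CD44 was called in the fit of the 4 shGFP arrays alone (adjusted p = 0.0438). CD44 lay below the median of all values on all 8 arrays.

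**Figure D4:**
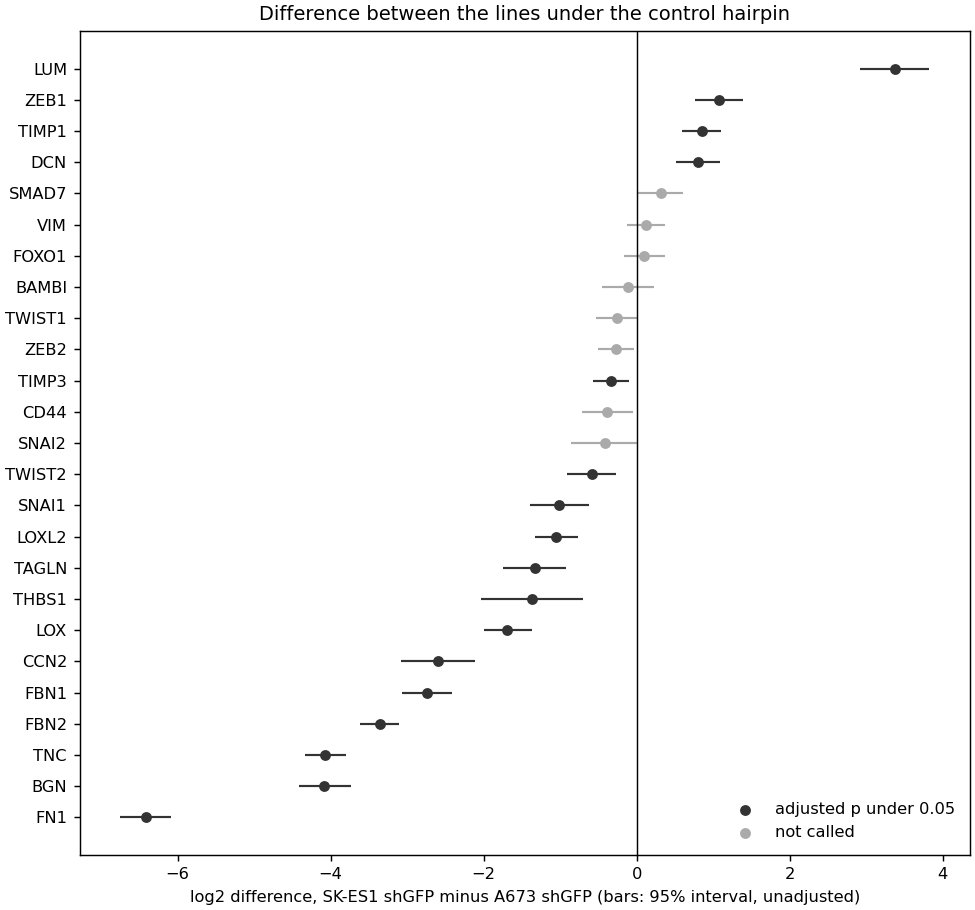
Log2 difference (SK-ES1 shGFP minus A673 shGFP, x axis) of the 25 genes with unadjusted 95% intervals; dark points were called at an adjusted p under 0.05. FN1 lies at -6.41 and LUM at 3.37, with 13 called genes on the lower side and 4 on the higher side.

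Genes of the same pathways outside the list were examined by further lists, of which 68 of 137 genes were measured. These lists were chosen with earlier results of these data known, so their shares are not independent of the data. Under shGFP 41 were lower in SK-ES1 and 6 higher (69.1% called, against 30.7% of all genes). All 6 measured proteases and inhibitors were lower, with the collagenase MMP1 at -4.81 (adjusted p = 2.03e-07; its SK-ES1 arrays, at 3.65 and 4.0, lay below the median of all values), the membrane protease MMP14 at -2.62 (adjusted p = 2.53e-07), the inhibitor TIMP2 at -1.61 and the protease CTSK at -1.26. Of 4 measured basement membrane genes 3 were lower, with NID2, a nidogen, at -3.20 (adjusted p = 9.11e-08), and AGRN was higher by 0.34 (adjusted p = 0.0383), a call lost with any 1 of the shGFP arrays left out. Of 13 other matrix genes 6 were lower and 0 higher, with the elastic fibre protein FBLN5 at -2.39 and versican, VCAN, at -1.78. Of 8 genes of collagen folding and processing 5 were lower, led by LOXL1 (-2.01) and PCOLCE (-1.57), and CRTAP was higher. The SK-ES1 shGFP arrays of NID2 (3.68 and 3.79) and VCAN (3.07 and 2.99) also lay below the median of all values. For CTSK, SK-ES1 shGFP replicate 2 did (3.76) and replicate 1 did not (4.14).

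Of 11 measured YAP and TEAD genes 8 were lower in SK-ES1, with AJUBA at -1.13 (adjusted p = 4.05e-05) and AMOTL2 at -0.90 (adjusted p = 0.000287), while the receptor kinase AXL was higher by 1.06. Of 9 actin and contractile genes 8 were lower, led by caldesmon, CALD1, at -2.11, and TPM2 was higher by 1.12. TGF-beta and BMP signalling genes were more mixed, with 5 lower and 2 higher of 17. Over all genes, 17.0% were called lower and 13.7% higher in SK-ES1. The ligand BMP2 was higher in SK-ES1 by 1.92 (adjusted p = 1.81e-06) and BMP4 stood at -0.68 (adjusted p = 0.00142). The SK-ES1 shGFP arrays of BMP4, at 3.81 and 3.9, lay below the median of all values. The latent TGF-beta binding protein LTBP1 was higher by 1.07 and the inhibitory SMAD6 stood at -1.02. No gene of the integrin list was analysed here.

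**Figure D5:**
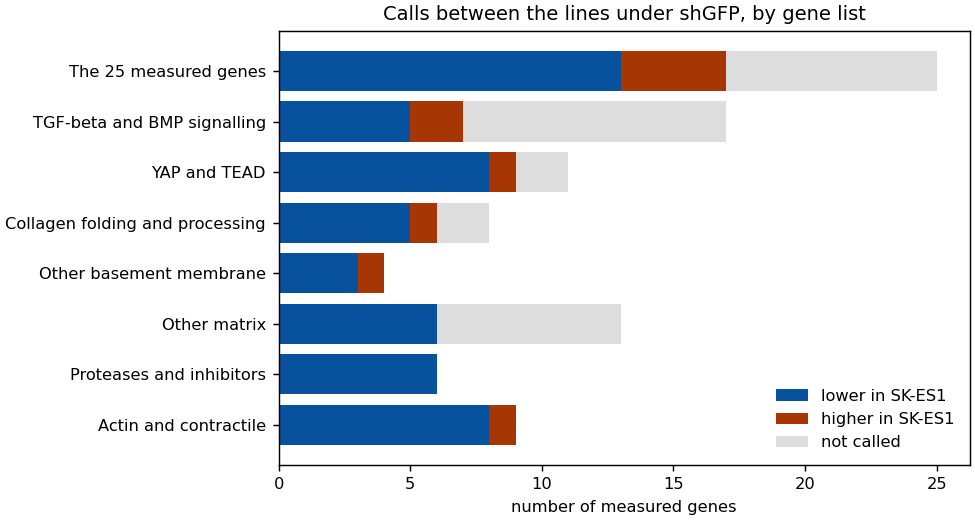
Number of measured genes (x axis) that were lower (blue) or higher (brown) in SK-ES1 than in A673 under shGFP or not called (grey), for the 25 genes and 7 further lists. Of the 25 genes 13 were lower and 4 higher, and all 6 proteases and inhibitors were lower.

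Under the RING1B hairpin few of these 68 genes passed. In A673, 2 were higher and 3 lower (7.35%, against 3.74% of all genes), and in SK-ES1 0, while BMP4 had 0.32 (adjusted p = 0.6) and PCOLCE -0.58 (adjusted p = 0.224) there. VCAN, a large matrix proteoglycan, fell in A673 from 4.67 and 4.94 to 3.50 and 3.37. That log2 change of -1.37 had a standard error of 0.142 (adjusted p = 0.00105). It was called in all 14 alternatives that kept VCAN, which the filter on low values left out. The A673 shRING1B arrays and all SK-ES1 arrays lay below the median of all values, 4.06, for VCAN. Signal above background was not shown there. NID1, a basement membrane linker, fell in A673 from 6.87 and 7.09 to 5.76 and 5.97 (adjusted p = 0.0311). BMP2 fell by 0.54 on the log2 scale (adjusted p = 0.0461), and AMOTL2 and FBLN5 rose by 0.53 each (adjusted p = 0.0428 and 0.0395). Apart from VCAN these calls were lost with any 1 of the 4 A673 arrays left out. NID1 was called in 11 of 15 alternatives, and BMP2, AMOTL2 and FBLN5 in 6 of 15 each. BMP2, AMOTL2 and FBLN5 were also lost in the fit of the 4 A673 arrays alone. AMOTL2 and FBLN5 were lost with any 1 of the 8 arrays left out. In SK-ES1, where VCAN stood at 3.07 and 2.99 under shGFP, the SK-ES1 change minus the A673 change was 1.29 (adjusted p = 0.0237), a call lost with the mean of its probe sets, without replicate 2 of A673 shGFP (0.125), without replicate 2 of A673 shRING1B or without any SK-ES1 array.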

How the data were processed

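RNA of 8 cell line samples, 30 ng of total RNA each, was prepared with Affymetrix's WT PLUS reagents for arrays, per the labels' protocols. The authors deposited 1 log2 value for each probe set and array, and the submitters' processing notes name RMA and limma. RMA equalises the arrays' distributions, which would hide a shift common to most genes. Of 48144 probe sets, 16098 (33.4%) carry a gene symbol in the platform's annotation, which gave 14884 genes. Signal over background is unknown, and precision is limited by the number of arrays.

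A model of 4 group means over all 8 arrays was fitted with limma 3.58.1 in R 4.3.3 (4 residual and 6 prior degrees of freedom). P-values are two-sided, adjusted by Benjamini-Hochberg over all 14884 genes, and a gene is called at an adjusted p under 0.05. All adjusted p-values come from limma. Intervals are unadjusted 95% intervals, and fold changes are 2 to the power of the log2 difference.

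Data for 14884 genes were simulated with the spread of these arrays. In A673, 17.5% of 63 log2 changes of 0.5, 80.3% of 71 of 1 and 100% of 66 of 2 were recovered. The number of changed genes was set in the simulation, and the share recovered depends on it. Genes of the list were named where called or among the 10 with the smallest p in a hairpin comparison or the difference, where among the 10 largest called differences per direction between lines, or where brightest in their role. Of the other lists, up to 4 called genes with the smallest p were named. The genes, lists and motifs were chosen with earlier results of these data known. Replicate numbers follow accession order and only name an array. Alternatives were other normalizations and centring, a filter on low values, the mean of a gene's probe sets, another variance model, fits of fewer arrays and each array left out.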

Additional observations from a re-analysis of the deposited data

Results flagged for a closer look

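The difference between the lines' TWIST1 changes passed the test: the SK-ES1 change minus the A673 change was -1.05 on the log2 scale (limma adjusted p = 0.0341), with the A673 shRING1B arrays at 5.84 and 5.65 above the shGFP arrays and the SK-ES1 shRING1B arrays at 4.53 and 4.35 below theirs. The call was lost in 7 of 14 alternatives, each of which left out 1 array other than A673 shRING1B replicate 2. The groups hold 2 arrays each, so no array was tested for standing apart from its group.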

How the results depend on the processing

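No paired analysis was possible because the labels give no replicate numbers shared between groups. The titles carry 1 running number over all samples, in which the hairpins alternate within a line, and no label ties neighbours in it to a shared culture or batch. The count of called genes of the list in A673, 1 as reported, was 0 with quantile normalization repeated, with arrays centred on 1 median, with the mean of a gene's probe sets and in the fit of the 4 A673 arrays, 2 with genes below the median of all values left out, 4 with trended and robust variance and 0 to 1 with each array left out. In SK-ES1 it was 1 with trended and robust variance and 0 with each array left out, and for the mean of both lines 1 with trended and robust variance. For the difference between lines it was 0 to 1 with each array left out. Between the lines under shGFP it was 14 to 17 with each array left out, within 1.5 times the 17 in each of the 15 alternatives. The median change of the genes of the list stayed above 0 in A673 (0.0664 to 0.156) and below 0 in SK-ES1 (-0.125 to -0.0432) in all 15 alternatives. The filter on low values kept 22 of the 25 genes, without TWIST2, DCN and CD44. Calls over all genes moved more than 1.5 times in some alternatives, from 557 to between 101 and 434 with each array left out in A673, from 10 to between 2 and 7 in SK-ES1, from 202 to between 51 and 158 for the mean, and from 117 to between 0 and 72 for the difference. With trended and robust variance these 4 counts were 1052, 34, 481 and 281. With the fit of the 4 A673 arrays the first was 213, with the filter the others were 21, 337 and 179, and with arrays centred SK-ES1 had 16. The cause of these moves was not tested, beyond the smaller number of genes or arrays where some were left out. With 2 arrays a group, changes of 0.5 on the log2 scale were mostly missed at this threshold in the simulated data.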
